A study of Mus musculus with 8 samples.

Results

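H3K9ac, an acetylation of histone H3 found at active promoters and enhancers, was examined at the 8 interferon regulatory factor (IRF) genes Irf1, Irf2, Irf3, Irf4, Irf5, Irf7, Irf8 and Irf9, out of 21938 protein-coding genes. They were taken as the named genes of the family. Every peak within 1 kb of any of their transcription start sites (TSSs), inside their gene bodies or in the 60 kb downstream was used. The libraries came from frozen whole BM cells of NUP98-HOXD13-tg C57BL/6 mice, a model of MDS that can progress to AML, and every group carried this transgene. The mice expressed GFI1-36S, the common form of the transcriptional repressor GFI1, the variant GFI1-36N, or a reduced level of GFI1 (GFI1-KD). For each genotype, 1 library came from mice given vehicle (DMSO, labelled no curcumin) and 1 from mice given 20 mg/kg curcumin weekly by i.p. injection. The age of the mice and the number of mice behind a library are not given in the labels. By the names of the deposited GFI1-36N lists, the vehicle mouse was heterozygous and the curcumin mouse homozygous. The labels give no zygosity. If the names hold, curcumin and zygosity cannot be told apart in any GFI1-36N difference between treatments below. Each group is 1 library, so the differences below were not checked against the spread between mice and no p-value was computed.

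IRFs are transcription factors that bind DNA through a conserved domain recognising repeats of GAAA. Irf3, which is made in most cells, and Irf7, which is itself induced by interferon, are activated by kinases downstream of sensors of viral nucleic acid and switch on type I interferon genes. Irf9 belongs to the complex that carries the signal of the interferon receptor to interferon-stimulated genes. Irf1 is induced by interferon-gamma, and Irf2 often competes with it at the same sites. Irf4, Irf5 and Irf8 act mostly in immune lineages. Irf8 drives monocyte and dendritic cell development at the expense of granulocytes, and it is known for enhancers spread far downstream of the gene.

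Sequences are shown for 4 member promoters because they hold, or lack, the letters to which STATs and IRFs bind, and for the strongest sites downstream of Irf8. They were read from the RefSeq promoter table and genome (GRCm38.p6). A promoter runs from 250 bases before the start to 50 after it, and the table held 11 promoters for the 8 members. The motifs were searched on both strands. They were the core of the interferon-stimulated response element (ISRE), GAAA repeated after any 2 bases, the ETS-IRF composite, GGAA and then GAAA after any 2 bases, and the gamma-activated site (GAS) bound by STATs, TTC and then GAA after any 3 bases. Of the 32851 promoters in the table, 3.44% held the ISRE core, 2.72% the ETS-IRF composite and 8.30% the GAS. Capitals mark the matches. All are written 5′ to 3′, on the strand of the gene.
Irf1 promoter, chr11:53769764-53770063, + strand: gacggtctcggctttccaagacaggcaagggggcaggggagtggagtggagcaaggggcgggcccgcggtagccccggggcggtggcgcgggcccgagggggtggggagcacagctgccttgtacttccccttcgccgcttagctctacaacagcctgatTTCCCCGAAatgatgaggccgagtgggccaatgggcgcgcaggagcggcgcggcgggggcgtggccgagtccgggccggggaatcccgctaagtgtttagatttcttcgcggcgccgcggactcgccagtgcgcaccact
Irf2 promoter, chr8:46739495-46739794, + strand: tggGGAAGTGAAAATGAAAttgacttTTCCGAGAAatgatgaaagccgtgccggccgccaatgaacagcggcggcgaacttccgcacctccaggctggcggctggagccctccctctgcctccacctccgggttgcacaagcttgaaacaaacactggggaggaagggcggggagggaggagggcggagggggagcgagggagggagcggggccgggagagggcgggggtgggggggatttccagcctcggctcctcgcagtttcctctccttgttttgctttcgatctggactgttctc
Irf7 promoter, chr7:141266375-141266674, − strand: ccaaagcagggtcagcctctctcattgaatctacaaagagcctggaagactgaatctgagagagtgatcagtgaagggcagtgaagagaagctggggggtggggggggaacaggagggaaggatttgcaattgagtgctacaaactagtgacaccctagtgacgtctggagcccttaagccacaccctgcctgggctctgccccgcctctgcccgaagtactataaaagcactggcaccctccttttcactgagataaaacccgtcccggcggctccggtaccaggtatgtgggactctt
Irf8 promoter, chr8:120736108-120736407, + strand: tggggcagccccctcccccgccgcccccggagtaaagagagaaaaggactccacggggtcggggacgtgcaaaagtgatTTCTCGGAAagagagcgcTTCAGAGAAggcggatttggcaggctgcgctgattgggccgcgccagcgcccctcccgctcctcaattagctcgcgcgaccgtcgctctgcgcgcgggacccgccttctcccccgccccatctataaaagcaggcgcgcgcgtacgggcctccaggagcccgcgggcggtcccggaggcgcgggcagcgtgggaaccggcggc

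The Irf1 promoter held 1 GAS, TTCCCCGAA, starting 90 bases before the start. The Irf8 promoter held 2, TTCTCGGAA and TTCAGAGAA. The Irf2 promoter held all 3 motifs. Its ETS-IRF match, GGAAGTGAAA, starts at base 4 of the window and overlaps its ISRE match, GAAAATGAAA, which starts at base 10. A GAS, TTCCGAGAA, follows at base 27. None of these letters was found in the windows of Irf3, Irf4, Irf5, Irf7 and Irf9, or in the windows of the other start of Irf1 and of Irf8. A match is a description of letters and not a bound site. The sequences below are 300 bases around the summit of the sites 57.1 kb and 76.2 kb downstream of the first Irf8 start, on the + strand, neither of which held a motif. Among the 19 sites outside promoters at Irf8, 1 held the ETS-IRF composite, 1 the GAS and 0 the ISRE core. At the 24748 peaks outside promoters of the GFI1-36N vehicle library, the shares of windows of this length with these motifs were 4.12%, 9.11% and 6.34%.
Irf8 +57.1 kb, chr8:120793318-120793617: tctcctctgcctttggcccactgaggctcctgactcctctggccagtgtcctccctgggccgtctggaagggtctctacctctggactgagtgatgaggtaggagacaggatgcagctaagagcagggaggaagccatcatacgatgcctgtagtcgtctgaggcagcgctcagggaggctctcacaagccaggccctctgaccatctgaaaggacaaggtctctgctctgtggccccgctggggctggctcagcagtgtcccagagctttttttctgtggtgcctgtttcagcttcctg
Irf8 +76.2 kb, chr8:120812377-120812676: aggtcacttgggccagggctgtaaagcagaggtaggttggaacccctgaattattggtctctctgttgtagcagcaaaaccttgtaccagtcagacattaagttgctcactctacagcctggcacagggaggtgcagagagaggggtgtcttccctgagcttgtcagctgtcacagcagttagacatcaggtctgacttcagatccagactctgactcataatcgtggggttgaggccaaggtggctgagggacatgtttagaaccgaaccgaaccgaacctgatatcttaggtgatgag

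The lists held between 20354 and 49213 peaks, and the shortest was that of GFI1-36S curcumin. Each value rests on the fragments counted at 1 summit, which were recovered as whole numbers (within 0.02 of a fragment) for 97.96% to 99.99% of the peaks. The 95% intervals given here are exact Poisson intervals of those fragments and cover counting error only. The GFI1-36S curcumin library stood apart from the others. In it 12 of 12 T cell markers had a promoter peak, against 6 to 8 in the other libraries. Of 11 neutrophil markers, 1 had a peak there, against 7 to 11 elsewhere. Of 7 stem and progenitor markers, 0 had one. Of 11 monocyte and dendritic cell markers, 3 had one, against 10 or 11 elsewhere. This list also held 3 peaks on chromosome Y, against 0 in each other list. Its median promoter fold enrichment was 12.5, against 17.4 to 21.5 elsewhere. The part of these differences in the GFI1-36S values was not tested. The names of both GFI1-36S lists also carry the opposite treatments to the labels, which were followed here. Each result is therefore given per genotype. Markers also shifted within the GFI1-KD pair, where 20.7% of all genes ranked at least 10 lower with curcumin and 9.38% at least 10 higher. Of 11 neutrophil markers, 6 were lower and 2 higher by this measure (median change −21.5, summed rank 363 to 161). Of 7 erythroid markers, 6 were lower and 0 higher (−21.0, 229 to 81.5). S100a8 had the widest fall of the neutrophil markers in GFI1-KD, from 75.1 to 10.5. The 2 that were higher there were Csf3r (46.2 to 66.7) and Mpo (15.1 to 26.3). In GFI1-36N the same lists had a median change of 8.61 (200 to 285) and 3.9 (88.5 to 130). There 1 marker of each was at least 10 lower (11.0% of genes), and 2 and 1 were at least 10 higher (19.5% of genes). The part of these shifts in the values below was not tested. In whole BM, fewer cells of a type and less acetylation per cell cannot be told apart.

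Heights are not normalized between libraries. Each promoter was therefore ranked from 0 to 100 among the strongest promoter peaks of all genes with a peak in the same library, by the fold enrichment of the peak over its local background, with 0 for no peak. At least 1 library showed a promoter peak for each of the 8 members, as for 12903 of all genes. Irf1, Irf2, Irf3, Irf5, Irf7, Irf8 and Irf9 had one in all 6 libraries, and Irf4 in 3. Irf2 had the highest member rank in 4 of the 6 libraries, Irf3 in GFI1-36S curcumin and Irf5 in GFI1-KD curcumin. Irf4 was the lowest in each library. The intervals of most neighbours in this order overlapped. They did not between Irf5 and Irf8 in GFI1-36S vehicle, between Irf1 and Irf5 in GFI1-36S curcumin, between Irf4 and the member above it in both GFI1-36N libraries, and between Irf3, Irf8 and Irf4 in GFI1-KD vehicle.

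**Figure D1:**
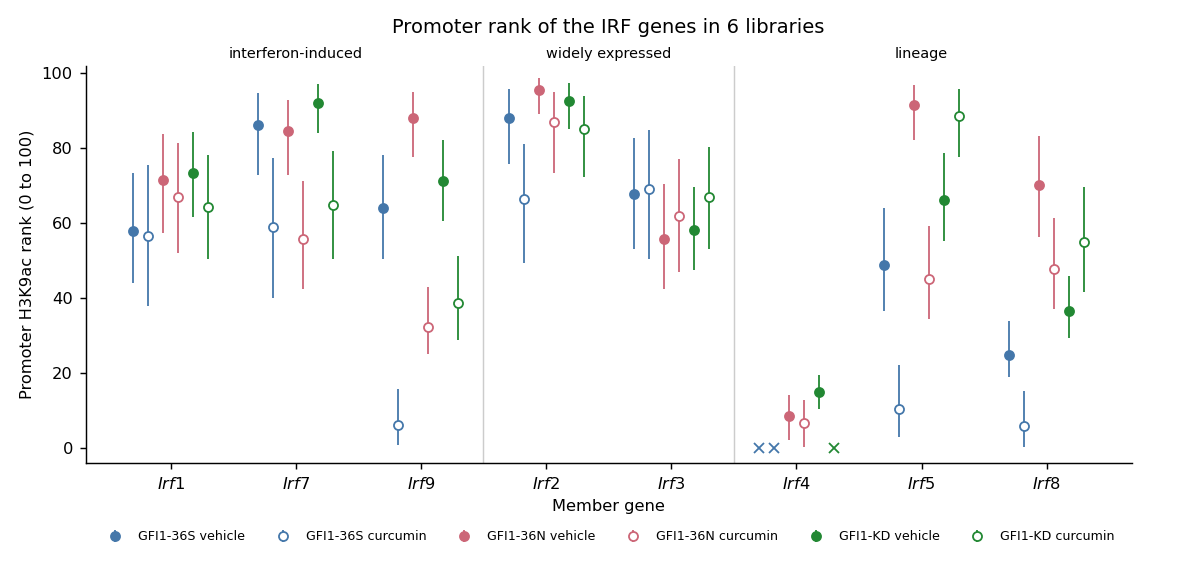
Promoter rank (vertical axis, 0 to 100) of the 8 IRF genes in 6 libraries, with vehicle as filled and curcumin as open points, 95% counting intervals as lines and crosses where no peak was listed. Irf7 and Irf9 have their open point under the filled one in each genotype, and Irf5 and Irf8 do so in GFI1-36S and GFI1-36N but not in GFI1-KD.

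Among the interferon-induced members, Irf7 and Irf9 ranked lower with curcumin in all 3 genotypes. Irf7, the main amplifier of type I interferon, had a rank of 86.2 with vehicle and 59.1 with curcumin in GFI1-36S, 84.5 and 55.7 in GFI1-36N, with 91.9 and 65.0 in GFI1-KD. All 3 vehicle libraries were above all 3 curcumin libraries, and the share of all genes with this order was not counted. The changes were −27.1 (95% interval −48.0 to −4.40), −28.8 (−44.4 to −9.35) and −27.0 (−42.3 to −10.6). These rest on 179 and 77 fragments at the summit in GFI1-36S, 183 and 129 in GFI1-36N, with 272 and 138 in GFI1-KD. As fold enrichment over the median promoter of the library, curcumin values were 0.731, 0.707 and 0.690 times the vehicle values, less than a 1.5-fold fall in each pair.

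Irf9, the DNA-binding part of the interferon-activated STAT complex, had a rank of 64.1 and 6.18 in GFI1-36S, 88.0 and 32.3 in GFI1-36N, with 71.4 and 38.7 in GFI1-KD, for vehicle and curcumin respectively. Here too the vehicle libraries were all above the curcumin libraries, an order whose share over all genes was not counted. The changes were −57.9 (−73.1 to −41.3), −55.7 (−65.7 to −40.8) and −32.7 (−47.3 to −16.1), the widest falls of any member in the 3 pairs. Over the median promoter of the library, its fold enrichment was 0.321, 0.459 and 0.636 times that with vehicle. The peak also narrowed, from 3.68 to 0.43 kb in GFI1-36S, from 4.16 to 3.05 kb in GFI1-36N and from 4.02 to 1.83 kb in GFI1-KD. The median promoter peak of the library narrowed too in GFI1-36S and GFI1-KD, from 1784 to 1059 bp and from 1945 to 1534 bp.

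Irf1, an early target of interferon-gamma, had a rank of 58.0 and 56.7 in GFI1-36S, 71.5 and 67.0 in GFI1-36N, with 73.3 and 64.4 in GFI1-KD. These changes were −1.30, −4.46 and −8.90, and each interval included 0. The peak at this promoter also covers the start of Gm17334. The strongest peak narrowed with curcumin from 2.56 to 1.43 kb, from 3.76 to 1.36 kb and from 3.08 to 2.05 kb. The site was listed as 1 peak with vehicle and 2 with curcumin in GFI1-36S and GFI1-36N, and as 2 under both treatments in GFI1-KD, so that the width of the strongest peak is not that of the whole site in those lists. The narrowing was seen while the rank differed by less than the call of 10 used here.

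Only Irf7 and Irf9 of the 8 members ranked at least 10 lower with curcumin in all 3 pairs. This held for 1.46% of the 12903 genes with a promoter peak. Without the GFI1-36S pair, the same 2 members were lower in both remaining pairs, beside 2.51% of genes. If the treatments of GFI1-36S were exchanged as in the list names, 0 members would be lower in all 3 pairs. By the list names, the GFI1-36N pair also differs in zygosity.

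The members made in most cells stayed within 10 of their vehicle rank, except Irf2 in GFI1-36S. Irf2, an attenuator of interferon responses, had a rank of 88.2 and 66.5 in GFI1-36S, 95.5 and 86.9 in GFI1-36N, with 92.5 and 85.0 in GFI1-KD. Its change of −21.7 in GFI1-36S had an interval of −40.4 to −2.59, and it was −10.8 when peaks were ranked by −log10 p. Those of −8.64 and −7.47 had intervals that included 0. Irf3 had a rank of 67.8 and 69.1, 55.9 and 61.8, and 58.2 and 67.0 in the same order. It was the one member above its vehicle value in each pair, by 1.24, 5.93 and 8.81, and each interval included 0. The GFI1-KD value passed the call at 10.1 with equal numbers of peaks and at 13.1 when ranked by −log10 p. Its peak, 2.30 to 2.64 kb wide in every library, spans the start that Irf3 shares with the divergent gene Bcl2l12, so that the value cannot be assigned to Irf3 alone.

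The lineage members differed between the genotypes. Irf5, which acts downstream of Toll-like receptors in macrophages, had a rank of 49.0 with vehicle and 10.6 with curcumin in GFI1-36S, and 91.4 and 45.1 in GFI1-36N. In GFI1-KD the vehicle value was 66.3 and the curcumin value 88.7. The changes were −38.4 (−55.3 to −21.3), −46.3 (−58.2 to −29.4) and 22.4 (5.81 to 35.5). Irf8 followed the same directions, with a rank of 25.0 and 5.83 in GFI1-36S, 70.2 and 47.8 in GFI1-36N, with 36.7 and 55.0 in GFI1-KD. Its changes were −19.1 (−29.6 to −8.04), −22.4 (−39.2 to −2.89) and 18.3 (1.99 to 34.6). Both genes were thus lower with curcumin in GFI1-36S and GFI1-36N and higher in GFI1-KD. Without replicates, whether the genotypes differ was not tested.

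By median change and summed rank, the monocyte and dendritic cell markers moved in the same directions as Irf5 and Irf8, though not every marker did. Of those with a peak in the pair, 9 of 10 were below their vehicle rank in GFI1-36S (median change −19.5), 9 of 11 in GFI1-36N (−8.61) and 4 of 10 in GFI1-KD (4.65). Among all genes with a peak in the pair, 69.3%, 39.4% and 63.0% were below it in the same order. Their summed rank was 221 and 61.7 in GFI1-36S, 392 and 273 in GFI1-36N, with 273 and 364 in GFI1-KD, for vehicle and curcumin. Csf1r, the receptor of the macrophage growth factor, had a rank of 22.1 and 0, 43.4 and 22.7, and 25.9 and 55.6. Some markers went the other way. The widest such changes were 17.51 for Batf3 in GFI1-36S, 15.65 for Tcf4 in GFI1-36N and −12.78 for Zbtb46 in GFI1-KD. Siglech, a marker of plasmacytoid dendritic cells, had no peak except in GFI1-36N vehicle, with a rank of 2.56. The part of cell composition in the values of Irf5 and Irf8 was not tested.

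Irf4, a factor of plasma cells and activated lymphocytes, had no promoter peak in either GFI1-36S library. In GFI1-36N it ranked 8.73 with vehicle and 6.68 after curcumin. In GFI1-KD a peak with a rank of 15.0 and 55 fragments was listed with vehicle and none with curcumin, a change of −15.0. A promoter without a listed peak may still hold fragments below the threshold of the peak caller. With an equal number of the strongest peaks taken from each list, this change was −9.08, under the call of 10. Of the 9 B cell markers, 2 to 4 had a peak in a library. Vpreb1, a part of the pre-B cell receptor, ranked between 77.1 and 87.8 in all 6, and Cd79b ranked 15.6 or more in 5. Pax5 and Ms4a1 had no peak in any library. Cd79a and Ebf1 had one in GFI1-KD vehicle alone, the library in which Irf4 ranked highest, at 1.14 and 8.80. Their part in the Irf4 value was not tested.

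**Figure D2:**
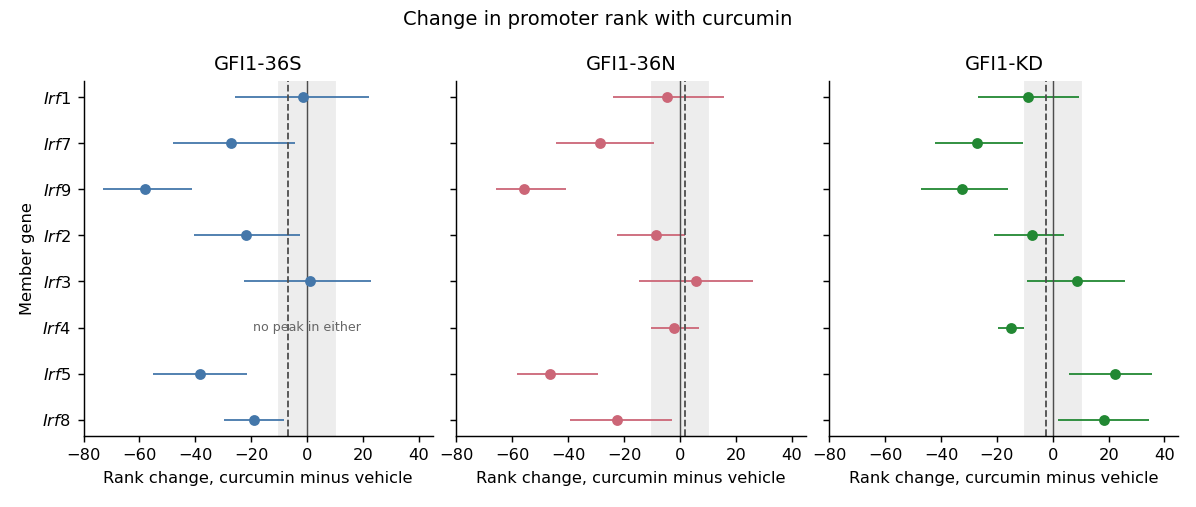
Change in promoter rank (horizontal axis, curcumin minus vehicle) of each IRF gene in the 3 genotypes, with 95% counting intervals. The grey band marks changes under 10 and the dashed line the median of all genes. The intervals of Irf7 and Irf9 lie below 0 in each panel, and those of Irf5 and Irf8 lie below 0 in GFI1-36S and GFI1-36N and above 0 in GFI1-KD.

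As a group, the members ranked lower with curcumin more often than higher. In GFI1-36S, 5 of 7 members with a peak in the pair were at least 10 lower (41.6% of genes) and 0 at least 10 higher (14.7% of genes). In GFI1-36N, 4 of 8 were lower (11.0% of genes) and 0 higher (19.5% of genes). In GFI1-KD, 3 of 8 were lower (20.7% of genes) and 2 higher (9.38% of genes), and 2 were lower with equal numbers of peaks, without Irf4. The median change of the members was −21.7, −15.5 and −8.18, beside −6.73, 1.98 and −2.37 over all genes tested. The share of all genes that ranked lower was highest in GFI1-36S, whose curcumin library stood apart.

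The vehicle libraries were then compared to ask how the IRF promoters differ between the GFI1 genotypes. Both comparisons share the GFI1-36S library. In GFI1-36N, Irf1, Irf5, Irf8 and Irf9 ranked at least 10 higher than in GFI1-36S (15.2% of genes) and Irf3 at least 10 lower (17.3% of genes). The widest differences were 45.2 for Irf8 (28.6 to 59.5) and 42.4 for Irf5 (24.7 to 56.1). Irf9 was 24.0 higher (6.35 to 39.2), and the intervals of Irf1 and Irf3 included 0. In GFI1-KD, Irf1, Irf4, Irf5 and Irf8 ranked at least 10 higher than in GFI1-36S (16.3% of genes) and 0 members lower (9.88% of genes). Here Irf8 was 11.7 higher (0.18 to 22.8), and the intervals of Irf1 and Irf5 included 0. Irf7 and Irf2 differed by less than 10 in both comparisons. The monocyte and dendritic cell markers had a median difference of 13.9 in GFI1-36N and 4.51 in GFI1-KD, and their part in the values of Irf5 and Irf8 was not tested.

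The width of the peak set Irf8 apart from the other members. Its promoter peak was 4.83 kb wide in GFI1-36S vehicle, 8.48 and 7.50 kb in GFI1-36N vehicle and curcumin, and 8.12 and 7.87 kb in GFI1-KD vehicle and curcumin. In GFI1-36S curcumin it was 0.40 kb. The site was listed as 1 peak in GFI1-KD curcumin and as 2 or 3 in every other library. In those lists the width of the strongest peak is not that of the whole site. The median promoter peak of a library was between 1059 and 1945 bp. The peak of Irf5 was between 2.94 and 3.04 kb in 5 libraries and 0.53 kb in GFI1-36S curcumin, so that in GFI1-36N its rank was lower with curcumin at a like width. Irf7 peaks were 2.10, 2.36 and 2.64 kb wide with vehicle and 0.73, 1.57 and 1.62 kb with curcumin. The median over all genes was also narrower with curcumin in GFI1-36S (1784 and 1059 bp) and GFI1-KD (1945 and 1534 bp), but not in GFI1-36N (1715 and 1760 bp). Irf2 had its summit 1072 to 1225 bp inside the gene in the 6 libraries, and Irf9 728 to 750 bp inside.

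**Figure D3:**
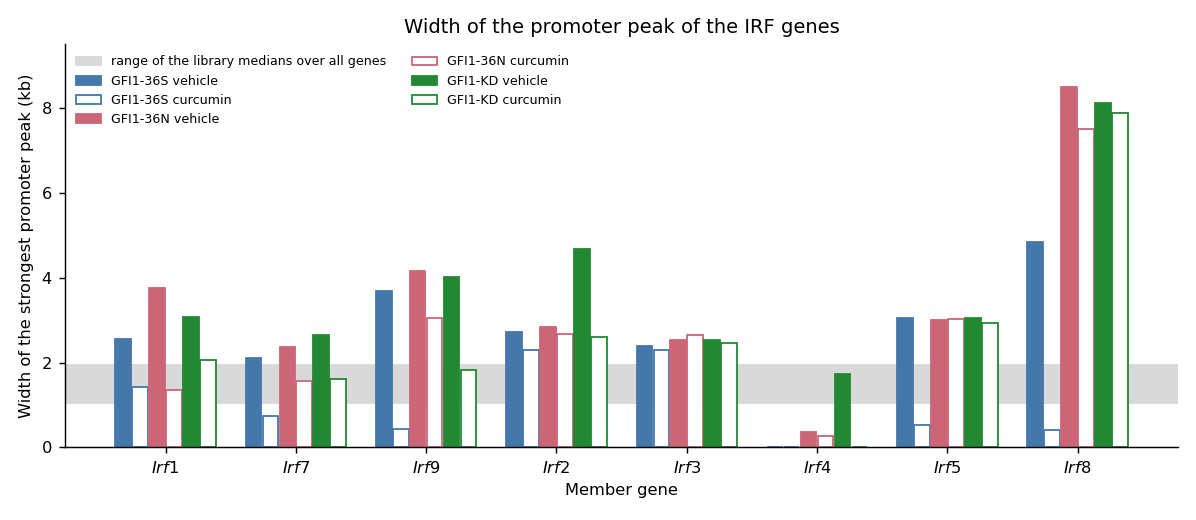
Width of the strongest promoter peak (kb) of each IRF gene in 6 libraries, with vehicle as filled and curcumin as open bars and no bar where no peak was listed. The grey band is the range of the library medians over all genes. Irf8 peaks exceed 7 kb in 4 libraries, and the Irf9 and Irf7 bars are shorter with curcumin in each genotype.

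Across the gene bodies and the 60 kb downstream, the peaks of the 6 lists merged into 87 sites. Of these, 16 were promoters of a member, 15 promoters of another gene, 16 lay inside a member and 40 downstream. The 56 sites outside promoters were distributed unevenly, with 19 at Irf8, 19 at Irf2, 10 at Irf1, 3 at Irf4, 2 each at Irf3 and Irf7, 1 at Irf9 and 0 at Irf5. Of the 56, 23 were listed in 1 library, 5 in all 6 and a further 11 in every library except GFI1-36S curcumin. The 23 sites of 1 library had ranks between 0.54 and 48.8 among all peaks of their list. Of the sites with a peak in either library of a pair, 5 of 22 had one in both in GFI1-36S (22.7%, Wilson 95% interval 10.1% to 43.4%). In GFI1-36N this was 28 of 42 (66.7%, 51.6% to 79.0%) and in GFI1-KD 16 of 35 (45.7%, 30.5% to 61.8%). Neighbouring sites of a gene are not independent, so these intervals cover counting alone. The same counts and shares were not computed for all peaks outside promoters. Those given here are therefore not read as particular to the IRF genes. List length also differed within a pair, with 41312 peaks for GFI1-36S vehicle but 20354 for its curcumin list.

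Irf8 showed the widest difference between the genotypes in the number of sites outside promoters. The vehicle lists held 2 such sites in GFI1-36S, 16 in GFI1-36N and 2 in GFI1-KD, and the curcumin lists 0, 14 and 4. Counted as peaks, GFI1-36N vehicle had 17, against 3 in GFI1-36S and 2 in GFI1-KD. A surplus of at least 5 peaks, a rule chosen after the values were seen, was found over GFI1-36S for 2.14% of genes and over GFI1-KD for 2.72%. Irf8 was the one member past it in both comparisons. Within GFI1-36N, 11 of the 19 sites were listed under both treatments, 5 under vehicle only and 3 under curcumin only.

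The Irf8 sites are named here by the distance of the summit from the first start, and their values are ranks among all peaks of a list. The +57.1 kb site had a rank of 57.6 in GFI1-36S vehicle, 66.7 and 73.7 in GFI1-36N, with 57.5 and 60.8 in GFI1-KD, for vehicle and curcumin, and no peak in GFI1-36S curcumin. It was therefore present in the 5 other libraries at a like rank. The +32.5 kb site was also present in those 5, but at 62.4 and 59.1 in GFI1-36N against 20.5 in GFI1-36S vehicle and 2.97 and 15.6 in GFI1-KD. It rests on 39 and 28 fragments in GFI1-36N. The +76.2 kb site had a rank of 68.4 and 73.2 in GFI1-36N and 69.5 in GFI1-KD curcumin, on 48, 44 and 66 fragments, and no peak in the other 3 libraries.

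Among the other Irf8 sites, +52.7 kb had a rank of 53.9 and 55.3 in GFI1-36N alone. The +52.0 kb site had 21.4 and 57.3 in GFI1-36N and 9.94 in GFI1-KD curcumin. The remaining 14 sites were listed only in GFI1-36N libraries, with ranks from 2.14 to 43.7. They lay at +10.9, +11.6, +14.1 and +14.4 kb inside the gene and at +24.2, +26.9, +29.5, +38.4, +48.0, +58.2, +59.1, +59.6 and +70.9 kb downstream, with 1 more 29995 bp from the start. The lower ranks of these sites stand for peaks near the limit of detection, so that their absence from another list is not evidence of no acetylation. The vehicle lists were of like length, with 41312 peaks in GFI1-36S, 39564 in GFI1-36N and 39272 in GFI1-KD.

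**Figure D4:**
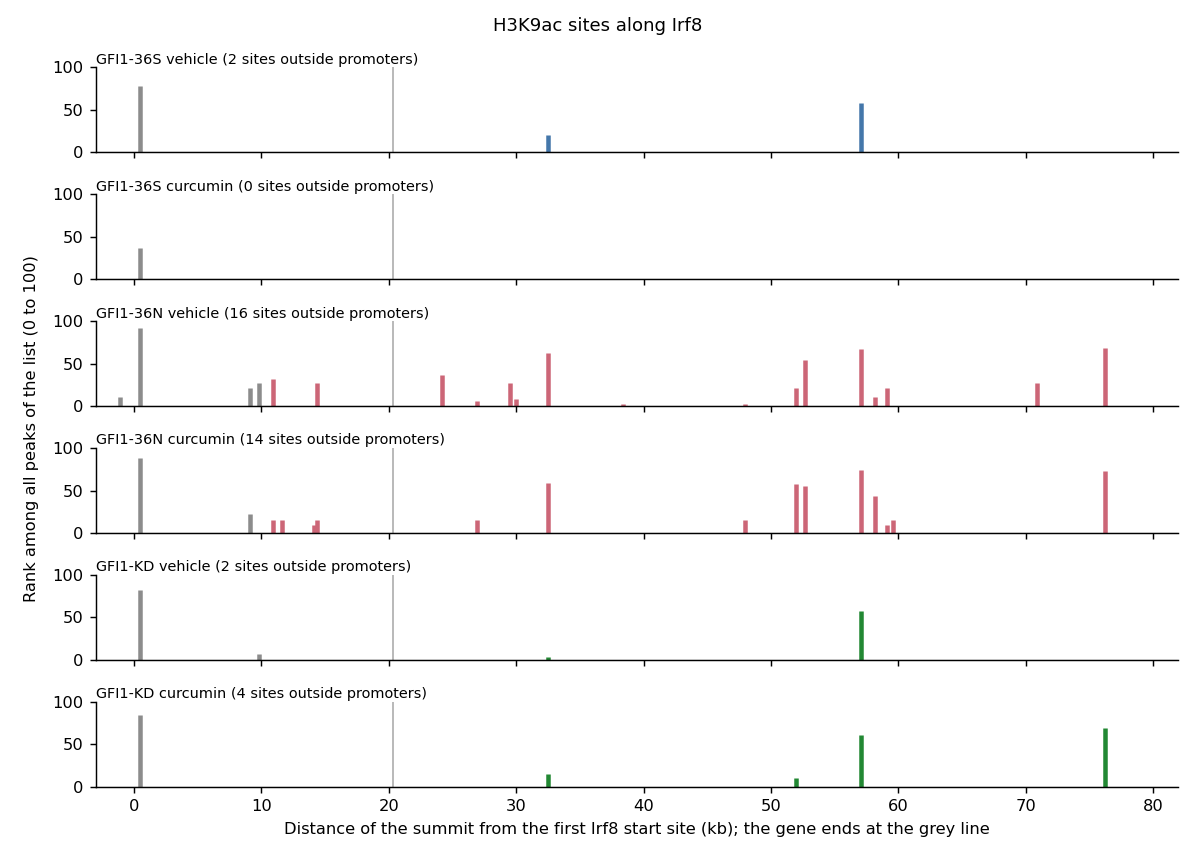
H3K9ac sites along Irf8 in 6 libraries, by distance of the summit from the first start site (horizontal axis, kb) and rank among all peaks of the list (vertical axis, 0 to 100). Grey bars are promoter sites, coloured bars sites outside promoters, and the grey line is the gene end. GFI1-36N holds 16 and 14 coloured bars, and the other libraries between 0 and 4.

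At the other members, the strongest site outside promoters was +150.9 kb for Irf2, with ranks of 62.2 in GFI1-36S vehicle, 71.5 and 74.3 in GFI1-36N, with 71.4 and 63.3 in GFI1-KD. It had no peak in GFI1-36S curcumin. For Irf7 it was +44.3 kb, with a rank of 65.9 and 12.6 in GFI1-36S, 68.2 and 74.1 in GFI1-36N, with 69.2 and 58.1 in GFI1-KD. This site lies within 1 kb of the start of the microRNA gene Mir210, and promoters were defined here for protein-coding genes alone. In GFI1-36N the Irf7 promoter peak went from 95.9 to 90.1 on this rank among all peaks. The site rests on 50 and 46 fragments there, with overlapping intervals. Its fold enrichment went from 6.98 to 8.13, while that of the median promoter went from 17.4 to 20.9. No direction of change was therefore read from this site. For Irf1 it was +35.9 kb, with 40.8 in GFI1-36S vehicle, 48.2 and 39.4 in GFI1-36N, with 44.9 and 53.6 in GFI1-KD, and again no peak in GFI1-36S curcumin. The strongest such sites of Irf3 (+59.3 kb), Irf4 (+17.5 kb) and Irf9 (+15.9 kb) were listed in 1, 2 and 1 libraries with mean ranks of 3.69, 9.61 and 8.14 over the 6 libraries.

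Genes around the IRFs were described by lists chosen with earlier results of these data known. Among the 4 pathway lists, interferon-stimulated targets had the highest share of lower promoters in GFI1-36N (72.4%) and GFI1-KD (69.0%). Of the marker lists, erythroid markers were above this in GFI1-KD (85.7%). Of the interferon-stimulated targets with a peak in the pair, 17 of 28 ranked at least 10 lower with curcumin in GFI1-36S (60.7%, beside 41.6% of all genes). In GFI1-36N this was 21 of 29 (11.0% of all genes) and in GFI1-KD 20 of 29 (20.7% of all genes). In each pair 0 targets ranked at least 10 higher, beside 14.7%, 19.5% and 9.38% of all genes. The median change was −11.5, −17.5 and −18.1. Of 31 matched genes, 13 were lower in all 3 pairs, beside 1.46% of the 12903 genes with a promoter peak. The 13 include Isg15, Isg20, Xaf1, Trim30a and the neighbouring genes Oas2 and Oas3. Without the GFI1-36S pair, 16 were lower in both others, beside 2.51% of genes.

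The widest fall in this list was that of Trim30a in GFI1-36N, from 90.0 to 22.4. Isg20, an RNA-degrading enzyme, went from 50.4 to 10.9 in GFI1-36S, and Rtp4 from 51.7 to no peak in GFI1-KD. The largest increases were below the call. Psmb8, an immunoproteasome subunit, was 0.99 higher in GFI1-36S and 3.56 higher in GFI1-36N, and Bst2, which tethers budding virus, 4.41 higher in GFI1-KD. In the vehicle libraries, 14 of 29 targets ranked at least 10 higher in GFI1-36N than in GFI1-36S (15.2% of genes). In GFI1-KD this was 11 of 29 (16.3% of genes). In both comparisons 0 targets ranked at least 10 lower (17.3% and 9.88% of genes).

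Fewer of the sensors and kinases upstream of the IRFs than of the targets ranked lower. Of 22 genes, 10 ranked lower and 1 higher with curcumin in GFI1-36S, 7 and 2 in GFI1-36N, with 8 and 2 in GFI1-KD. The shares that ranked lower were 45.5%, 31.8% and 36.4%, beside 41.6%, 11.0% and 20.7% of all genes, so that the first is near the background. Ifih1, a sensor of viral RNA, had the widest fall in GFI1-36S (66.5 to 3.56) and GFI1-36N (81.7 to 44.5). Ddx58, which encodes the sensor RIG-I, had it in GFI1-KD (49.9 to 14.5). The widest rises were those of the kinase gene Ikbke in GFI1-36S (18.3 to 35.3), of Irak4 in GFI1-36N (49.5 to 65.8) and of the adaptor gene Ticam1 in GFI1-KD (56.0 to 82.8).

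Among receptors and JAK-STAT genes, 10 of 14 ranked lower and 2 higher in GFI1-36S, 2 and 2 of 15 in GFI1-36N, and 4 and 0 of 14 in GFI1-KD. The shares that ranked lower were 71.4%, 13.3% and 28.6%, of which the last 2 are near the 11.0% and 20.7% of all genes. Usp18, an interferon-induced brake on the receptor, had the widest fall in GFI1-36N (67.2 to 21.7) and GFI1-KD (48.7 to 9.76), and Il10rb in GFI1-36S (89.2 to 51.1). Socs1 was 14.1 higher in GFI1-36S and Socs3 8.49 higher in GFI1-KD. The partners and regulators of IRFs had a median change of 0.03, −2.24 and 0.93. Spi1, which encodes the IRF8 partner PU.1, went from 90.9 to 9.83 in GFI1-36S, in the library with few myeloid marker peaks. It was between 89.7 and 99.0 in the 4 libraries of GFI1-36N and GFI1-KD. Cebpa fell by 10.5 in GFI1-36N and was 21.9 higher in GFI1-KD, and Ikzf1 went from 96.5 to 64.0 in GFI1-KD. Irf2bp1 was 21.7 higher in GFI1-36S and Crebbp 18.3 higher in GFI1-36N.

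**Figure D5:**
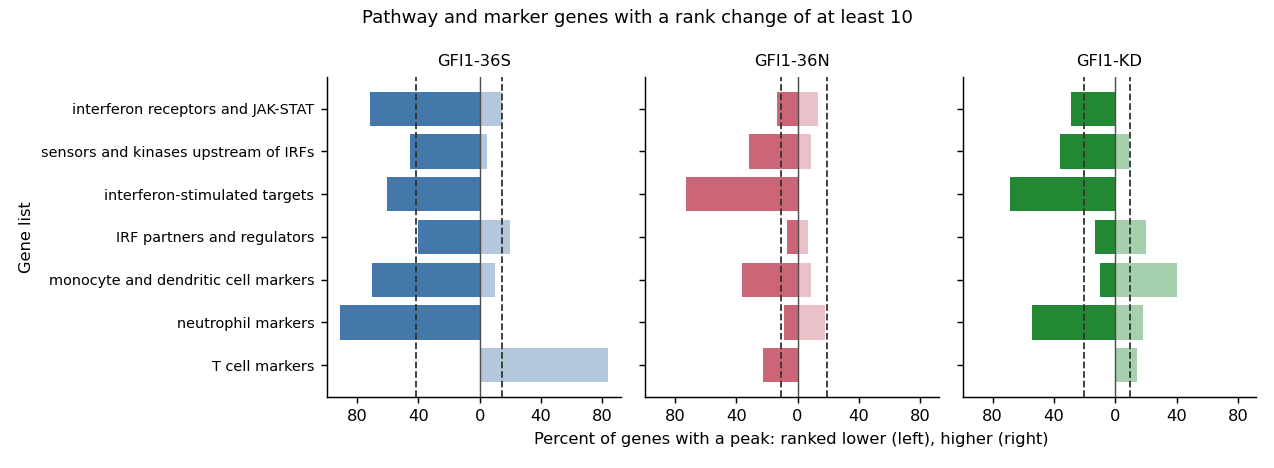
Percent of the genes of each list with a peak in the pair whose promoter ranked at least 10 lower (left, dark) or higher (right, pale) with curcumin, in the 3 genotypes. Dashed lines are the shares over all genes. Interferon-stimulated targets reach 72.4% lower in GFI1-36N and 69.0% in GFI1-KD, and T cell markers 83.3% higher in GFI1-36S.

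The genes whose ranks were most like those of a member were found by the distance over the 6 libraries, among 12894 or 12895 genes. The nearest to Irf7 were Parp14, itself one of the interferon-stimulated targets, at a distance of 14.7 rank units, and Lrif1 at 15.4. Those nearest to Irf9 were Ddx60 (21.4) and Hsh2d (22.3). Cdkn1a (11.7) and Il6ra (12.5) were nearest to Irf5, and Slc35f5 (13.9) and Ccdc122 (16.5) to Irf8. The nearest were Smad4 (8.93) and Gyg (8.995) for Irf1, Msh5 (8.17) and Asna1 (8.35) for Irf2, Specc1l (5.54) and Fkbp3 (7.42) for Irf3, and Plekha6 (3.26) and Rhobtb3 (3.95) for Irf4. Of these 16 genes, 7 were again nearest over the 5 libraries other than GFI1-36S curcumin. Among them were both of Irf4, Irf5 and Irf9 and none of Irf1, Irf2, Irf7 and Irf8. Among the members themselves, Irf1 and Irf3 were the nearest pair (27.5), and Irf5 lay 54.3 from Irf9 and 55.4 from Irf8.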

How the data were processed

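H3K9ac ChIP-seq peak lists of 6 libraries were used, 1 per genotype and treatment. Input and rabbit IgG samples were not analysed here. The authors trimmed reads with Trim Galore, mapped them to mm10 with BWA-MEM, called peaks with MACS2 and filtered black list regions, and the submitters' processing notes also name SAMtools, Picard and deepTools. The control, threshold and duplicate handling of each list are not given in the sources used here. The deposited fold enrichment is a ratio of summit fragments to local background, with −log10 p, −log10 q, an integer score and a summit offset for each peak, all from the authors' peak caller and without scaling across libraries.

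Promoters reached 1 kb to either side of each TSS of the protein-coding genes (GENCODE M21), and a peak had to overlap them by at least 1 bp. For each gene, the promoter peak with the highest fold enrichment received a rank between 0 and 100 within its library. A change of at least 10 was called and is read against the share of all genes. Sites were peaks merged over the 6 lists. Summit fragments were recovered from the fold enrichment and p of MACS2, for peaks with −log10 p under 290, and gave exact Poisson 95% intervals. The interval of a change combined those of both ranks. The scripts ran under pandas 2.3.3, scipy 1.17.1 and numpy 2.4.6 (Python 3.11.15), and the steps were tested on simulated data. No p-value was computed, since each group holds 1 library.

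The members, lists and motifs were chosen with earlier results of these data known. The genes named are the 8 members, for each the 2 genes most like it, the sites outside promoters of Irf8 and the strongest such site of each other member, and from each pathway list the gene with the widest fall and rise in each pair, of which 1 is not reported here. Marker genes, Parp14, Isg15, Xaf1, Oas2 and Oas3 were named after their values were seen. Of 32 interferon-stimulated targets, 31 matched the annotation, and every gene of the other lists matched.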

Additional observations from a re-analysis of the deposited data

Results flagged for a closer look

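Irf5 and Irf8 were flagged because their promoter rank moved in opposite directions with curcumin in different genotypes. The rank of Irf5 changed by −38.38 in GFI1-36S, −46.34 in GFI1-36N and 22.41 in GFI1-KD. That of Irf8 changed by −19.12, −22.39 and 18.27 in the same order. Each pair holds 1 library per treatment, so the difference was not tested. The counting interval of each of these 6 changes lay on 1 side of 0, which covers counting error and not the spread between mice. The summed rank of the 11 monocyte and dendritic cell markers moved in the same directions (221 to 61.7, 392 to 273 and 273 to 364), and its part in these values was not tested.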

How the results depend on the processing

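Of 187 alternative values, 171 stayed within the counting interval of the reported value or, for counts, within 1.5 times it, 10 moved and 6 reversed. Among the 171, 3 changes under the call of 10 turned sign (Irf1 in GFI1-36S, 1.73 with equal numbers of peaks and 1.30 with treatments exchanged, and Irf3 there, −1.24 with treatments exchanged), and Irf3 in GFI1-KD passed the call under 2 alternatives (10.05 and 13.06). With the treatments of GFI1-36S exchanged, the median change of the members there was 21.68, 0 members were lower, and Irf2, Irf5, Irf7, Irf8 and Irf9 changed by 21.68, 38.38, 27.08, 19.12 and 57.88, by construction. In that case 0 members and 0 interferon-stimulated targets were lower in all 3 pairs, against 2 and 13 as labelled. With a fold enrichment over the library median at least 1.5-fold lower in place of a rank change of 10, 3 members were lower in GFI1-36S and 2 in GFI1-36N, which were Irf5 and Irf9 in GFI1-36N. The share of sites outside promoters with a peak in both libraries was 0.0% in GFI1-36S with −log10 q of at least 5, and 90.32% in GFI1-36N when a site needed a peak in 2 lists. Leaving out the GFI1-36S curcumin list gave 16 sites outside promoters present in every list, in place of 5, and left 7 of the 16 genes most like the members among the nearest. The Irf4 change in GFI1-KD was −9.08 with equal numbers of peaks, which left 2 members lower there. The alternatives that leave out GFI1-36S libraries or exchange them across pairs were added after the data were seen. No replicate could be left out, since each group holds 1 library. No paired analysis was possible because each group holds 1 library, so that no replicate numbers pair the libraries. With the genotypes taken as 3 pairs, an exact two-sided sign-flip permutation test cannot go below p = 0.25, and a fit of treatment with genotype as a block, which leaves 2 residual degrees of freedom, was not run. Counting error is wide at the sites, where the median summit held 24 to 36 fragments.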
